A study of Mus musculus with 14 samples.

Results

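The nuclear genes of the oxidative phosphorylation system were followed across 14 bulk RNA-seq libraries of mouse ascending aorta. Members were taken by symbol, as genes named Nduf followed by a, b, c, s or v, Sdha to Sdhd, and those that begin with Uqcr, Cox4 to Cox7 or Atp5. Of 105 genes with such names, 12 carry pseudogene (-ps) symbols and 10 had a mean below 5 FPKM, the deposited fragment level scaled for gene length and library depth, over the 14 libraries. The remaining 83 of the 32289 genes in the table are the members: 38 of complex I, 3 complex I assembly factors (Ndufaf), 4 of complex II, 8 of complex III, 13 of complex IV and 17 of complex V. The members were thus chosen by name and by mean FPKM over all libraries, so their mean level is given as a description. The members just inside the limit were Ndufab1 at 5.21, Atp5md at 5.49 and Cox4i2 at 5.51 FPKM, and the genes just outside were Ndufaf5 at 4.62, Ndufaf4 at 3.94 and Ndufaf7 at 3.59 FPKM. All 83 members passed the filter for testing. One complex I member without a -ps name, Ndufb4c (9.30 to 15.3 FPKM), is listed in the files as a processed pseudogene and may share reads with Ndufb4.

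Complexes I to IV form the respiratory chain of the inner mitochondrial membrane. They pass electrons from NADH and succinate to oxygen, and complexes I, III and IV pump protons as they do so. Complex V, the ATP synthase, lets the protons flow back and makes ATP. Most subunits are encoded in the nucleus and imported, while the catalytic core of complexes I, III and IV and a part of complex V also need subunits encoded by mitochondrial DNA. Smooth muscle of the aortic wall uses this system moderately, while striated muscle fibres and brown adipocytes are much richer in it.

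All mice were labelled C57BL/6, and all aortas were taken at week 6. There were 3 PBS libraries and 4 libraries of mice fed BAPN (β-aminopropionitrile), a lysyl oxidase inhibitor used to induce aortic aneurysm and dissection. In addition, 3 libraries came from mice given BAPN and Cilengitide (BAPN+Cilengitide) and 4 from mice given BAPN and SB273005 (BAPN+SB273005), 2 inhibitors of integrin αV. The labels give no age, sex, dose or start of inhibitor, and no group received an inhibitor without BAPN. Whether each library is a different animal is not stated; the p-values therefore reflect sample-to-sample spread, which may be technical. The total estimated counts ran from 49027885 to 72584877 per library. In bulk tissue, fewer cells of a type and less RNA per cell cannot be told apart.

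Several libraries stood apart, and the labels do not explain it. Levels of a gene list are given here as the mean log2 level of its genes relative to their mean over 14 libraries. Smooth muscle markers, 8 of 8 tested, were abundant, with Acta2 at 2724 to 6417 FPKM in every library but BAPN+SB273005 replicate 2, where it was 548 FPKM. The smooth muscle level was 0.43 to 0.71 in PBS, 0.04 to 0.58 in BAPN, -0.26 to 0.24 in BAPN+Cilengitide and -2.15 to -0.01 in BAPN+SB273005. Skeletal muscle markers, 8 of 8 tested and none at 0, ran from -3.12 to 3.40 in PBS, -0.40 to 2.87 in BAPN, -0.20 to 0.99 in BAPN+Cilengitide and -1.88 to 0.57 in BAPN+SB273005, and the highest level was that of PBS replicate 2. Brown adipocyte markers, 7 of 9 tested, ran from -0.98 to 0.85, -0.07 to 1.70, -0.13 to 0.32 and -1.68 to 0.45 in the same order of groups, highest in BAPN replicate 4 and lowest in BAPN+SB273005 replicate 2. Macrophage markers, 8 of 8 tested, ran from -1.56 to -1.22, -0.55 to 0.58, 0.02 to 1.05 and 0.12 to 1.08. In the same order, cardiomyocyte markers, 10 of 11 tested, ran from -0.33 to 1.36, -1.81 to -0.49, -0.71 to 0.41 and 0.13 to 1.51. Every BAPN+SB273005 library was thus above every BAPN library in the cardiomyocyte level. By gene, 3 of the 10 markers were above BAPN without overlap, and 2 had a log2 difference below 0. Myh7, 1 of the 10, was at 4.51 to 5.08 FPKM in PBS and 5.31 to 7.54 in BAPN+SB273005 replicates 1 to 3. It was at 0.0329 to 0.261 FPKM in every other library, the same split as H2-Ea shows. H2-Ea, an MHC class II gene not expressed in C57BL/6, had 0 counts in PBS and in BAPN+SB273005 replicates 1 to 3, and 83 to 130 counts in each of the other 8 libraries, which goes against their strain label. PBS thus differs from BAPN and from BAPN+Cilengitide in this feature too, and the feature and the treatment cannot be told apart in those comparisons. In BAPN+SB273005 against BAPN or BAPN+Cilengitide, replicate 4 alone shares the feature with the other group, so there too the feature and the treatment largely cannot be told apart.

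The most abundant members by FPKM were the ubiquitous subunits of complexes IV and V. Cox6a1 and Cox4i1 (cytochrome c oxidase subunits) averaged 206 and 133 FPKM, and Cox7a2l, which takes part in joining complexes III and IV, averaged 87.7 FPKM. Atp5a1 and Atp5b, the α and β subunits of the catalytic head, averaged 134 and 123 FPKM, followed by the rotor subunit Atp5c1 at 69.8 FPKM. In complex III the highest were Uqcr10 at 75.1, Uqcrh, the hinge protein, at 64.5 and Uqcr11 at 51.3 FPKM. In complex I they were Ndufb9 at 68.1, Ndufb11 at 61.9 and Ndufa2 at 60.2 FPKM. In complex II they were Sdhd, a membrane anchor, at 57.6, the flavoprotein Sdha at 43.9 and the iron-sulphur subunit Sdhb at 33.2 FPKM.

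The order of levels between genes depends on the length used. For all 83 members the deposited gene FPKM equals, within 1%, the transcripts' summed fragments divided by the length of all annotated exons merged. The sum of the transcript FPKM was higher, with a median ratio of 1.64 over the members and a range of 1.00 to 11.2. Cox6c had 21.5 FPKM as a gene, which ranked 53rd, but 140 FPKM summed over its transcripts, which ranked 6th. Atp5l had 10.3 and 116 FPKM in the same 2 forms. Differences between groups for a gene are not affected by a fixed length.

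**Figure D1:**
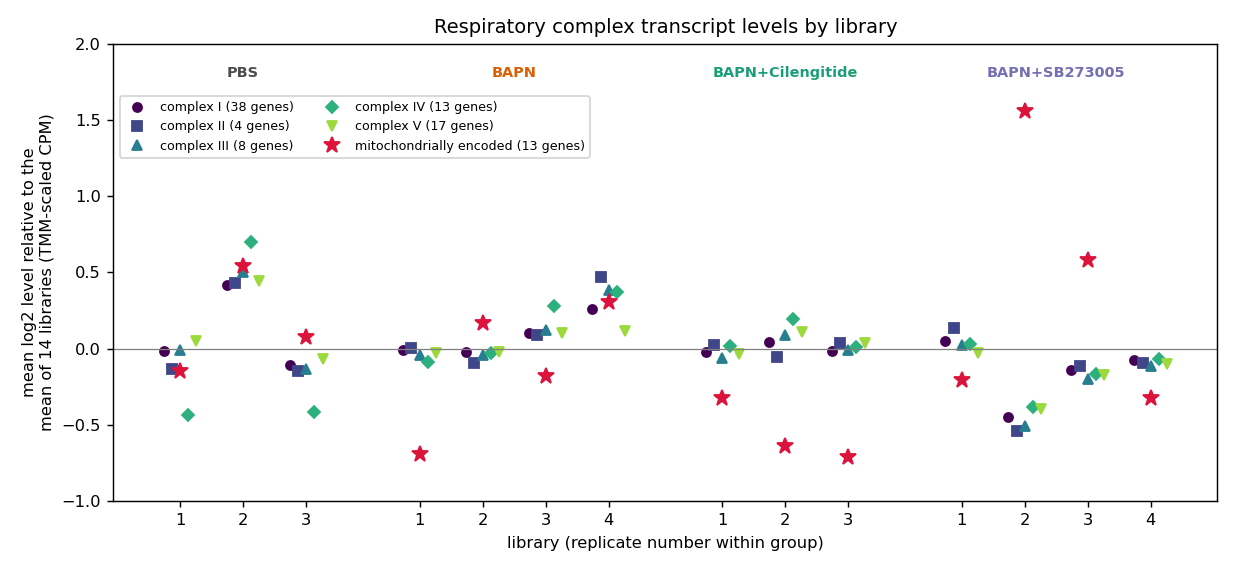
Mean log2 level (vertical axis, TMM-scaled CPM relative to the mean of 14 libraries) of the members of each complex and of the 13 mitochondrially encoded genes in each library, by group and replicate number. All 5 complexes were highest or near highest in PBS replicate 2 and lowest in BAPN+SB273005 replicate 2, except complex IV. That was lowest in PBS replicates 1 and 3, where Cox6a2 and Cox7a1 were far below every other complex IV gene. In BAPN+SB273005 replicate 2 the mitochondrially encoded genes were at 1.56.

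The members' common level differed between libraries of the same group. The mean log2 level of the 83 members was -0.07, 0.47 and -0.15 in the 3 PBS libraries, and -0.03, -0.03, 0.13 and 0.26 in BAPN. It was -0.02, 0.07 and -0.00 in BAPN+Cilengitide, and 0.03, -0.43, -0.15 and -0.08 in BAPN+SB273005. PBS replicate 2 held the highest level of 60 of the 83 members, BAPN replicate 4 that of 17, and BAPN+SB273005 replicate 2 the lowest level of 65. The pooled standard deviation within groups was 0.20 on this scale. The 4 groups overlapped, and PBS replicate 2 and BAPN+SB273005 replicate 2 were the extremes.

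The complexes shared this pattern with differences of degree. In PBS replicate 2, complexes I, II, III, IV and V were at 0.41, 0.43, 0.50, 0.70 and 0.44, and in BAPN+SB273005 replicate 2 at -0.45, -0.54, -0.51, -0.39 and -0.40. Complex IV was lowest in the other PBS libraries, at -0.44 and -0.42, where complex I was at -0.01 and -0.11. Its 13 genes include the muscle isoforms Cox6a2 and Cox7a1, described below. In PBS replicates 1, 2 and 3 Cox6a2 was at -3.28, 3.31 and -2.94, and Cox7a1 at -2.56, 1.63 and -1.45. Every other complex IV gene lay within -0.14 to 0.21, 0.07 to 0.69 and -0.48 to 0.12 in these libraries. The complex IV levels in PBS thus rest largely on these 2 genes. BAPN replicate 4, the library with the highest brown adipocyte marker level, had complex II at 0.47 but complex V at 0.12. Summed over all members, FPKM ranged from 2079 in BAPN+SB273005 replicate 2 to 3944 in PBS replicate 2, and the members took 0.408% and 0.768% of the counts there.

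Of the 6 comparisons, members passed the test in BAPN+SB273005 vs PBS alone (edgeR quasi-likelihood test over all 13294 tested genes, Benjamini-Hochberg adjusted p under 0.05). There 10 members were lower and 1 was higher. Over all tested genes, 5.38% passed as lower and 7.82% as higher in this comparison, against 10 and 1 of the 83 members. The median log2 difference of the members was -0.30, with 81 below 0 and 2 above, and that of all tested genes was 0.02. By complex the medians were -0.28 for complex I, -0.13 for II, -0.34 for III, -0.32 for IV and -0.28 for V, and -0.20 for the 3 assembly factors. Of the members that fell, 6 were in complex I, 1 in II, 1 in IV and 2 in V, and none in III. There 5 of 8 had an unadjusted p below 0.05 and were lower. Of all 13294 tested genes, 1714 were lower and 2160 higher at that p. In the same comparison 4 of 8 smooth muscle markers fell and 8 of 8 macrophage markers rose by the same test, and the part of cell composition in the members' differences was not tested.

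This count rested on few libraries. Without PBS replicate 2 no member passed and the median was -0.11, while 1.35% of all tested genes still passed as lower and 2.39% as higher. Without PBS replicate 1, 5 members passed (2.99% of all tested genes lower, 5.34% higher), and without BAPN+SB273005 replicate 3 also 5 (4.24% and 6.8%). Without BAPN+SB273005 replicate 1 or 2, 7 did (3.54% and 6.15%, and 5.73% and 7.11%). With both libraries numbered 2 left out, a choice made after the levels were seen, 1 member passed, as higher (Cox7a1). Over all tested genes 1.62% passed as lower and 2.44% as higher there, and the members' median was -0.04. A fit on these 2 groups alone, in place of the spread shared by all 14 libraries, called no member (1.08% of all tested genes lower, 2.93% higher). PBS against BAPN+SB273005 replicates 1 to 3, which share the H2-Ea feature, called none either (0.925% and 3.08%).

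**Figure D2:**
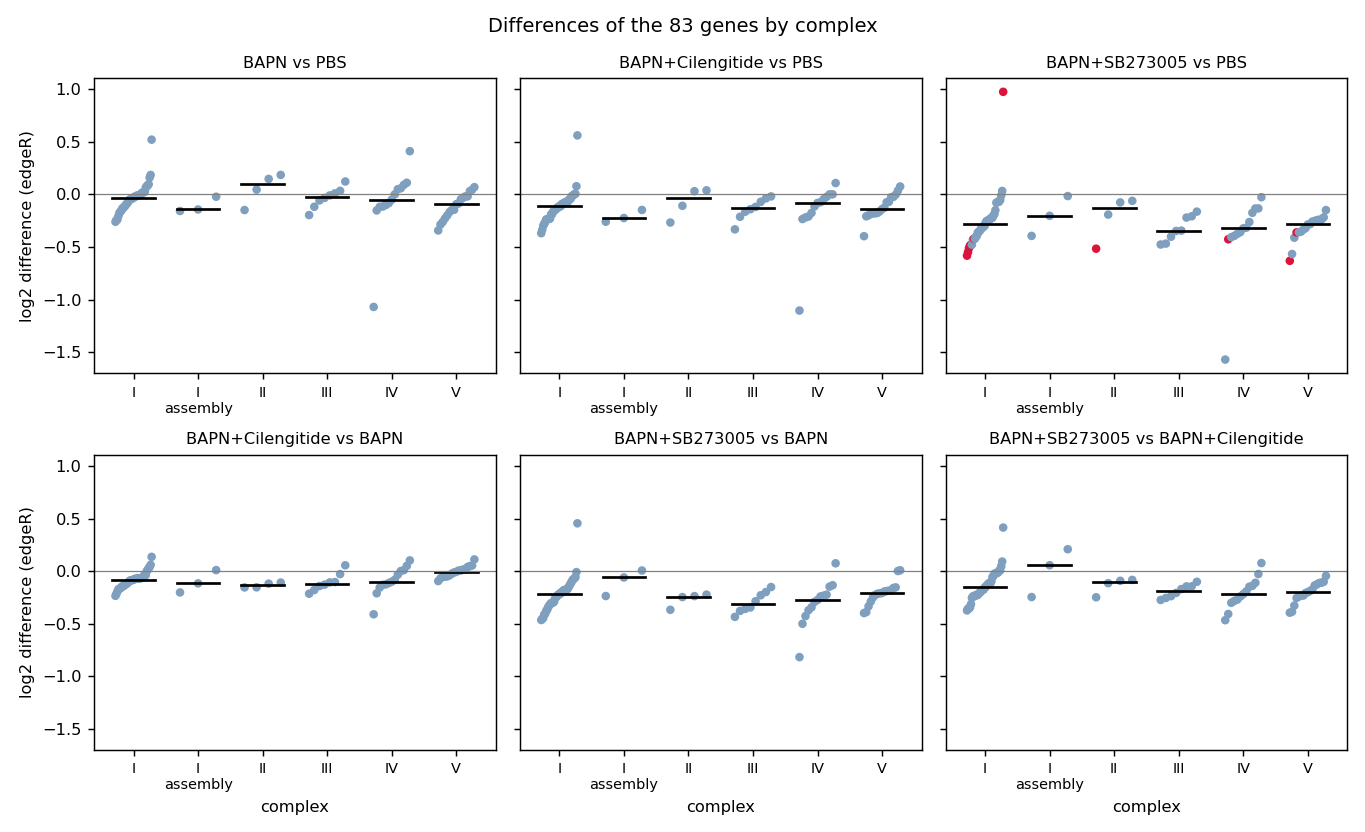
Log2 difference (vertical axis, edgeR) of each of the 83 members by complex in the 6 comparisons. Points are genes, red points passed the adjusted threshold of 0.05, and bars are medians. Members that passed appear in BAPN+SB273005 vs PBS alone, and the point near -1.57 there is Cox6a2, which did not pass.

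Among complex I genes, Ndufb7 (chr8:83566671-83571626, + strand, mm10), an accessory subunit on the intermembrane side, had the smallest p. It was at 12.2, 13.3 and 9.94 FPKM in PBS and 8.73, 6.53, 8.97 and 7.84 in BAPN+SB273005, so the groups did not overlap. The means were 11.8 ± 1.73 (SD, n = 3) and 8.02 ± 1.11 FPKM (n = 4), a log2 difference of -0.51 ± 0.12 (SE, edgeR adjusted p = 0.0171). BAPN (9.33 to 10.96 FPKM) overlapped the PBS libraries, and BAPN+Cilengitide (9.42 to 9.58 FPKM) lay between the groups. Over its 25 alternatives in this comparison the adjusted p of Ndufb7 ran from 0.00195 to 0.107.

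Ndufa13 (chr8:69894180-69902558, - strand), also called GRIM-19 and needed for complex I assembly, was at 49.7, 51.5 and 39.0 FPKM in PBS and 34.8, 24.8, 32.9 and 36.9 in BAPN+SB273005. Its log2 difference was -0.48 ± 0.12 (edgeR adjusted p = 0.0258). The highest BAPN+SB273005 value lay just under the lowest PBS value. Ndufv3 (chr17:31520115-31531331, + strand), a small subunit of the NADH-binding flavoprotein part, was at 18.6, 20.6 and 15.7 FPKM in PBS and 13.5, 10.9, 11.4 and 11.4 in BAPN+SB273005, a difference of -0.58 ± 0.15 (edgeR adjusted p = 0.0274). BAPN replicate 4, at 21.4 FPKM, was above all PBS libraries.

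Ndufa2 (chr18:36742332-36744557, - strand), a matrix arm subunit, had 76.7, 75.3 and 61.1 FPKM in PBS and 45.0, 47.4, 55.3 and 56.3 in BAPN+SB273005, and fell by 0.42 ± 0.12 on the log2 scale (edgeR adjusted p = 0.0362). It is the member among these where BAPN+SB273005 replicate 1, not 2, was lowest. Ndufc1 and Ndufa1, membrane arm subunits, fell by 0.55 ± 0.16 and 0.49 ± 0.14 (edgeR adjusted p = 0.0423 and 0.0424). Both were marginal: of the 14 fits that leave out 1 library, Ndufc1 missed the threshold in 10 and Ndufa1 in 11, and Ndufc1 was at -0.30 without PBS replicate 2 (edgeR adjusted p = 0.222). Ndufa1, on chromosome X, had 48.3 to 58.9 FPKM in PBS and 27.6 to 43.3 in BAPN+SB273005, and Ndufc1 had 11.1 to 16.8 and 7.17 to 10.3. Ndufc1, Ndufa1 and Cox6c fall outside the naming rule of 8 genes and were named after their values were seen, so that all 11 are given.

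In complex V, Atp5j (chr16:84827866-84835625, - strand), coupling factor 6 of the peripheral stalk, was at 34.9, 36.0 and 31.2 FPKM in PBS and 26.6, 22.7, 26.1 and 26.8 in BAPN+SB273005. Its difference, -0.36 ± 0.10 (edgeR adjusted p = 0.0291), was the smallest in size of the 11 that passed. Atp5g1 (chr11:96068852-96075670, - strand), 1 of 3 genes for the same c subunit of the membrane ring, was at 9.997, 13.8 and 8.87 FPKM in PBS and 7.15, 5.55, 7.196 and 7.35 in BAPN+SB273005. It fell by 0.63 ± 0.17 (edgeR adjusted p = 0.0322). Without PBS replicate 2 the difference was -0.38 (edgeR adjusted p = 0.163), and the call was also lost without BAPN+SB273005 replicate 1, 2 or 3. Its paralog Atp5g2 had -0.28 ± 0.10 and did not pass (edgeR adjusted p = 0.0705). Atp5g1 made up 8.92 to 12.5% of the FPKM summed over Atp5g1, Atp5g2 and Atp5g3 in PBS and BAPN libraries, and 8.09 to 9.83% in BAPN+SB273005.

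In complex II, Sdhc (chr1:171127165-171150603, - strand), a membrane anchor that binds haem, was at 35.2, 44.7 and 35.1 FPKM in PBS and 29.8, 19.8, 26.5 and 27.9 in BAPN+SB273005. Its difference was -0.51 ± 0.14 (edgeR adjusted p = 0.0354), while Sdha, Sdhb and Sdhd did not pass. In complex IV, Cox6c (chr15:35925886-35938246, - strand), a small accessory subunit, had 24.1, 28.5 and 22.7 FPKM in PBS and 20.3, 14.02, 18.8 and 19.1 in BAPN+SB273005, and fell by 0.43 ± 0.13 (edgeR adjusted p = 0.0434). It missed the threshold in 11 of the 14 fits that leave out 1 library.

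Ndufa4l2 (chr10:127514967-127517053, + strand) was the member that rose. It is a paralog of Ndufa4, induced by hypoxia in many cells, and is placed here in complex I by its name, although the Ndufa4 protein is now counted with complex IV. It was at 11.63, 13.98 and 15.98 FPKM in PBS and at 22.0, 40.8, 19.4 and 21.9 in BAPN+SB273005, with no overlap. The log2 difference was 0.98 ± 0.25 (edgeR adjusted p = 0.0258). Without BAPN+SB273005 replicate 2 it was 0.63 (edgeR adjusted p = 0.0229), and without PBS replicate 1 or 2 the call was lost (0.82 and 1.01, edgeR adjusted p = 0.0854 and 0.0755). BAPN was at 18.7 to 22.1 FPKM and BAPN+Cilengitide at 16.7 to 23.0 FPKM, each also above every PBS library, with differences of 0.52 ± 0.25 and 0.56 ± 0.26 that did not pass (edgeR adjusted p = 0.439 and 0.256). The share of Ndufa4l2 in the FPKM of Ndufa4l2 and Ndufa4 together was 20.8 to 31.3% in PBS and 26.6 to 38.1% in BAPN and BAPN+Cilengitide. It was 33.6, 34.8 and 36.6% in BAPN+SB273005 replicates 1, 3 and 4, and 67.7% in replicate 2, where Ndufa4 itself was at 19.5 FPKM.

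**Figure D3:**
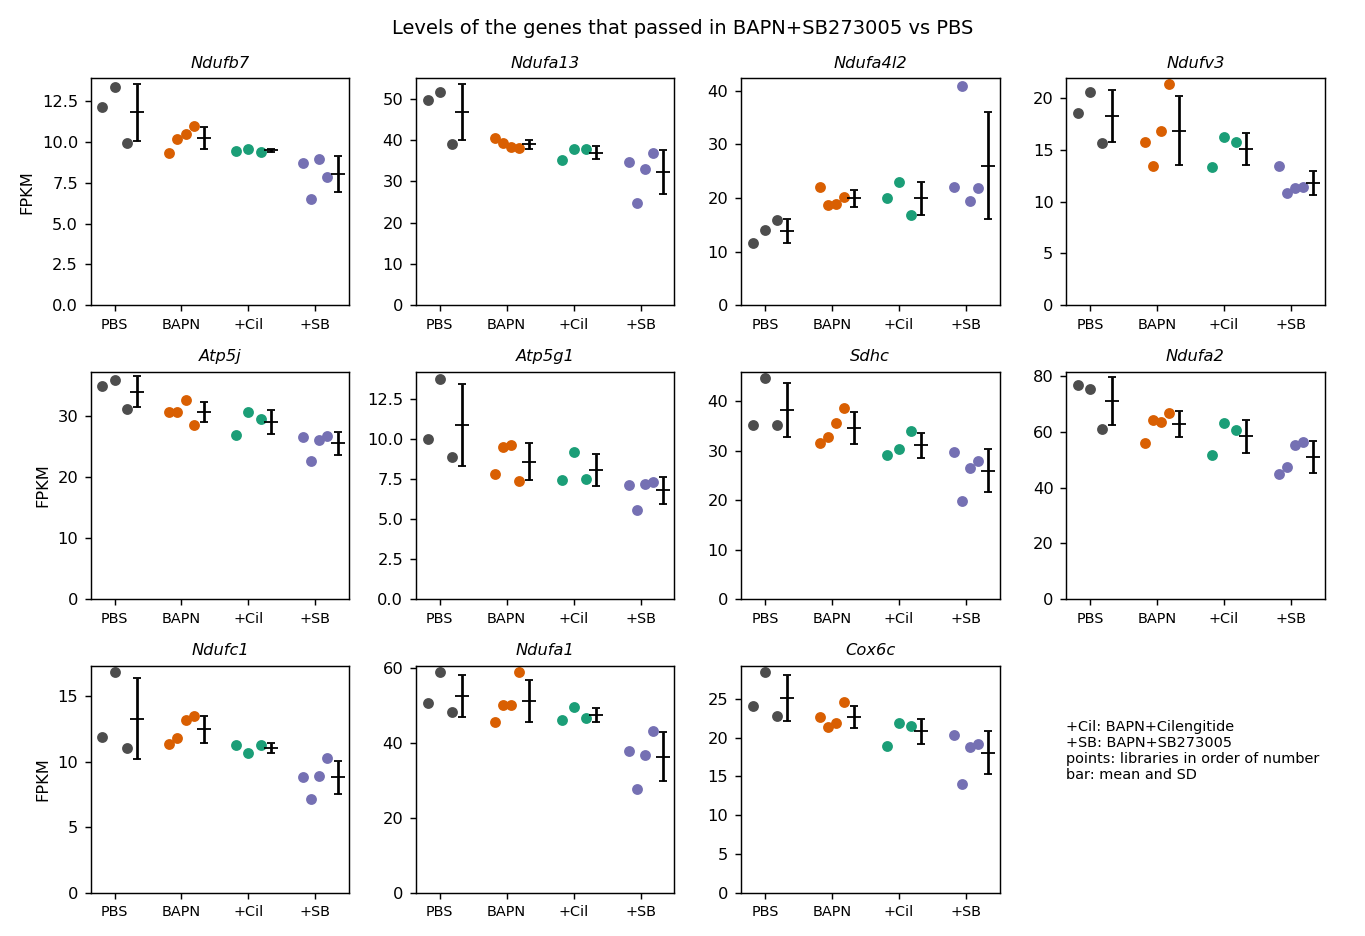
FPKM (vertical axes, from 0) of the 11 members that passed in BAPN+SB273005 vs PBS, in all 4 groups. Points are libraries and the bars give the mean and SD. In each of the 11 genes the PBS and BAPN+SB273005 libraries do not overlap, and BAPN+SB273005 replicate 2 is the lowest library in all that fell except Ndufa2.

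Without regard to the test, 24 of 83 members had every BAPN+SB273005 library below every PBS library by FPKM, where 14% of all tested genes did, and 1 had every library above, where 9.15% did. On TMM-scaled CPM, a scale added after the data were seen, the count was 21, with 11.1% over all tested genes. With both libraries numbered 2 left out, 26 members were lower by FPKM, and 24.8% of all tested genes were.

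Promoter sequences are shown for members of this gene group because several factors that drive mitochondrial biogenesis, NRF1, GABP (also called NRF-2) and YY1, are known to bind near the starts of respiratory genes. RefSeq promoters on GRCm38.p6, from 250 bases before to 50 bases after the start, were matched by symbol for 67 of the 83 members. For each gene shown, the last 100 bases before a RefSeq start are printed 5′ to 3′ on the gene's strand. Matches to the motifs of these 3 factors are in capitals. Ndufb7 and Atp5j fell in BAPN+SB273005, while Sdhd and Sdha did not pass.
Ndufb7, chr8:83566658-83566757, + strand: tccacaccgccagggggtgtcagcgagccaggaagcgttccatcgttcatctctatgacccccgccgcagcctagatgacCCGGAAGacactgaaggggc
Atp5j, chr16:84834977-84835076, - strand: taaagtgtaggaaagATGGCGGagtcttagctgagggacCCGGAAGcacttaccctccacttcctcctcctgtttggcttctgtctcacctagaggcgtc
Sdhd, chr9:50603850-50603949, - strand: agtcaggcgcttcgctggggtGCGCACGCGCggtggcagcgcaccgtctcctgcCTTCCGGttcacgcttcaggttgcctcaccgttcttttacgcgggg
Sdha, chr13:74350241-74350340, - strand: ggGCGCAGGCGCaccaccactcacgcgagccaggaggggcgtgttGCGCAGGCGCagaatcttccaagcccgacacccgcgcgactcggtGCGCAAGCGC

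The printed windows are examples with matches. Ndufb7 holds a GABP match, Atp5j a YY1 and a GABP match, Sdhd an NRF1 and a GABP match, and Sdha 3 NRF1 matches. The 100-base windows of Ndufa13, Ndufv3, Ndufc1, Ndufa1 and Atp5g1, which also fell, hold no match to the 3 factors. Nor do those of many other members. Atp5j has a second RefSeq start, and its window (chr16:84835626-84835725) adjoins the 5′ end of the gene as located above. That window holds none of the 3. The printed Atp5j window lies inside the gene as located above, and the Ndufb7 window reaches into its gene. Over both strands of the full promoters, the NRF1 motif, GCGCATGCGC with any base at the fifth position, was found in 25.4% of the 67 members and 5.19% of 27025 genes. The GABP motif CCGGAAG was in 26.9% and 9.93%, and the YY1 motif ATGGCGG in 16.4% and 4.69%. Of 8 motifs searched, all chosen after the data were seen, the other 5 were TCAAGGTCA (ERR alpha; 2.99% and 0.466%), ACGTG (HIF; 25.4% and 21.8%), CCAAT (43.3% and 41.1%), TATAAA (8.96% and 15.7%) and GCGCATGCGC exactly, a special case of the first (7.46% and 1.07%). Of the 10 genes that fell, 7 had a promoter in the table. Among these, NRF1 matches were in 0, GABP in 2 (Atp5j and Ndufb7) and YY1 in 2 (Atp5j and Ndufa1). A match describes the letters of the window and shows no binding; a window without one says nothing of the factor.

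In BAPN vs PBS no member passed (0.181% of all tested genes passed as higher and 0.0527% as lower; edgeR). The median was -0.04, with 27 members above 0 and 56 below, and 1 member was lower at an unadjusted p below 0.05. Of all 13294 tested genes, 652 were lower and 939 higher at that p. By FPKM 0 members were below PBS without overlap and 1 (Ndufa4l2) above, where 7.56% and 7.02% of all tested genes were. Atp5g2 had the smallest p, at 42.9, 44.5 and 36.8 FPKM in PBS and 37.1, 31.1, 31.9 and 35.9 in BAPN (log2 difference -0.29 ± 0.10, edgeR adjusted p = 0.226). Ndufa13, Ndufa4l2 and Atp5g3 followed, at -0.26 ± 0.12, 0.52 ± 0.25 and -0.26 ± 0.13 (edgeR adjusted p = 0.439, 0.439 and 0.463). The largest median by complex was that of complex II, at 0.10, and that of complex V was -0.09. The direction of the whole set turned with 1 library: without PBS replicate 2 the median was 0.16. It was 0.05 when FPKM were rescaled to the same total in each library (TPM), where that of all tested genes was 0.07.

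In BAPN+Cilengitide vs PBS no member passed either, while 1.6% of all tested genes passed as lower and 3.98% as higher. The median was -0.12, with 72 of 83 members below 0 and 3 lower at an unadjusted p below 0.05. Of all 13294 tested genes, 1143 were lower and 1541 higher at that p. The smallest p belonged to Ndufa13, Ndufa5, Ndufb7 and Atp5g1, at -0.30 ± 0.13, -0.37 ± 0.17, -0.28 ± 0.13 and -0.40 ± 0.19 (edgeR adjusted p = 0.228, 0.239, 0.243 and 0.254). Ndufa13 had 35.1, 37.8 and 37.9 FPKM in BAPN+Cilengitide, all below the lowest PBS library at 39.0. Members below PBS without overlap were 10 of 83, where 18.4% of all tested genes were, and 1 (Ndufa4l2) was above, where 13.5% were. On TMM-scaled CPM, 2 were below, where 16.1% of all tested genes were. Without PBS replicate 2 the median was 0.05, and it was 0.05 under TPM, where the median of all tested genes was 0.13. These 3 comparisons share the PBS libraries.

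The inhibitor groups were then set against BAPN. In BAPN+Cilengitide vs BAPN no member passed, nor did any other of the 13294 genes (0% in either direction; 355 lower and 452 higher at an unadjusted p below 0.05, of which 0 were members). DESeq2 called 8 genes higher and 13 lower, none of them a member. The members' median was -0.07, and the smallest p, of the assembly factor Ndufaf1, went with -0.20 ± 0.13 (edgeR adjusted p = 0.823). Ndufa5, Ndufab1, the mitochondrial acyl carrier protein, and Uqcrq had -0.22 ± 0.16, -0.23 ± 0.17 and -0.21 ± 0.19. By FPKM 8 of 83 members were lower without overlap (7.82% of all tested genes) and 0 higher (2.68%). On TMM-scaled CPM 4 were lower, where 5.17% of all tested genes were. Under TPM the median was 0.02, and that of all tested genes was 0.08.

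In BAPN+SB273005 vs BAPN no member passed, and 0.0226% of all tested genes passed as lower and 0.00752% as higher (edgeR). The median of the members was -0.23, with 78 of 83 below 0 and 19 lower at an unadjusted p below 0.05. Of all 13294 tested genes, 966 were lower and 1180 higher at that p. Ndufa1 had 45.5, 50.3, 50.2 and 59.1 FPKM in BAPN, and all BAPN+SB273005 libraries (27.6 to 43.3) were below them. Its log2 difference was -0.45 ± 0.13 (edgeR adjusted p = 0.190). Ndufv3, Atp5md, a small subunit linked to dimers of the synthase, and Ndufc1 had -0.46 ± 0.14, -0.39 ± 0.12 and -0.45 ± 0.15 (edgeR adjusted p = 0.194, 0.199 and 0.205). Over complexes I to V the medians ran from -0.21 in V to -0.32 in III. By FPKM 31 of 83 members were below BAPN without overlap, where 6.3% of all tested genes were, and 0 were above, where 1.56% were. On TMM-scaled CPM 15 members were below, with 3.76% over all tested genes.

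Last, BAPN+SB273005 was set against BAPN+Cilengitide. No member and no other gene passed (0% in either direction; 456 genes lower and 768 higher at an unadjusted p below 0.05, of which 4 and 0 were members; edgeR), and DESeq2 called 28 genes higher and 11 lower, none of them a member. The median of the members was -0.17, with 75 below 0. Atp5md was at 4.80, 6.56 and 6.32 FPKM in BAPN+Cilengitide and 4.94, 3.80, 4.63 and 4.41 in BAPN+SB273005, which overlapped (log2 difference -0.39 ± 0.13, 95% interval -0.68 to -0.11, edgeR adjusted p = 0.500). Ndufa1, Ndufv3 and Cox7c had -0.37 ± 0.14, -0.35 ± 0.15 and -0.30 ± 0.14. Members lower without overlap were 12 of 83, with 3.87% over all tested genes, and 0 were higher (2.66%). On TMM-scaled CPM 8 were lower, where 3.11% of all tested genes were. Under TPM the members' median was -0.44 and that of all tested genes -0.23. Leaving out BAPN+SB273005 replicate 2 brought the median to -0.09. In BAPN+SB273005 replicate 4, which shares the H2-Ea feature with BAPN and BAPN+Cilengitide, the members' mean level was -0.08, against -0.03 to 0.26 and -0.02 to 0.07 there. This is 1 library, and the pooled standard deviation within groups was 0.20, so it cannot separate the feature from the treatment.

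Of the 83 members, the muscle isoforms Cox6a2 and Cox7a1 of complex IV had the widest range over the libraries as a ratio of highest to lowest FPKM. Cox6a2, the heart and skeletal muscle form of Cox6a, was at 0.604, 56.4 and 0.730 FPKM in PBS. It was at 2.98, 7.70, 22.2 and 5.07 FPKM in BAPN, 9.83, 13.5 and 3.92 in BAPN+Cilengitide and 3.71, 7.78, 5.56 and 8.91 in BAPN+SB273005. PBS therefore held the highest library and the lowest ones. Cox7a1, the form of Cox7a in muscle and brown fat, was at 1.34, 23.0 and 2.77 FPKM in PBS and at 3.74 to 19.99 FPKM elsewhere (11 libraries).

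The skeletal muscle marker Ckm, muscle creatine kinase, was at 12.1, 293 and 14.1 FPKM in PBS and at 194 in BAPN replicate 3, the library with the next highest Cox6a2. Ucp1, the uncoupling protein of brown fat, was at 5.72, 68.7 and 10.8 FPKM in PBS and 196 in BAPN replicate 4, the library with the next highest Cox7a1. The part of these tissues in the isoform levels was not tested. Cox6a2 differed from PBS by -1.07 ± 1.17 in BAPN, -1.10 ± 1.27 in BAPN+Cilengitide and -1.57 ± 1.18 in BAPN+SB273005 on the log2 scale. Without PBS replicate 2 these became 3.83, 3.79 and 3.32. The differences of Cox7a1 were 0.41 ± 0.73, 0.00 ± 0.77 and -0.41 ± 0.72, and without that library 2.60, 2.19 and 1.79. None of these 6 passed with or without PBS replicate 2 (edgeR adjusted p = 0.408 to 1.00 with it and 0.0531 to 0.169 without). With both libraries numbered 2 left out, Cox7a1 passed as higher in BAPN+Cilengitide and in BAPN+SB273005 vs PBS (2.196 and 1.98, edgeR adjusted p = 0.0365 and 0.0378).

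**Figure D4:**
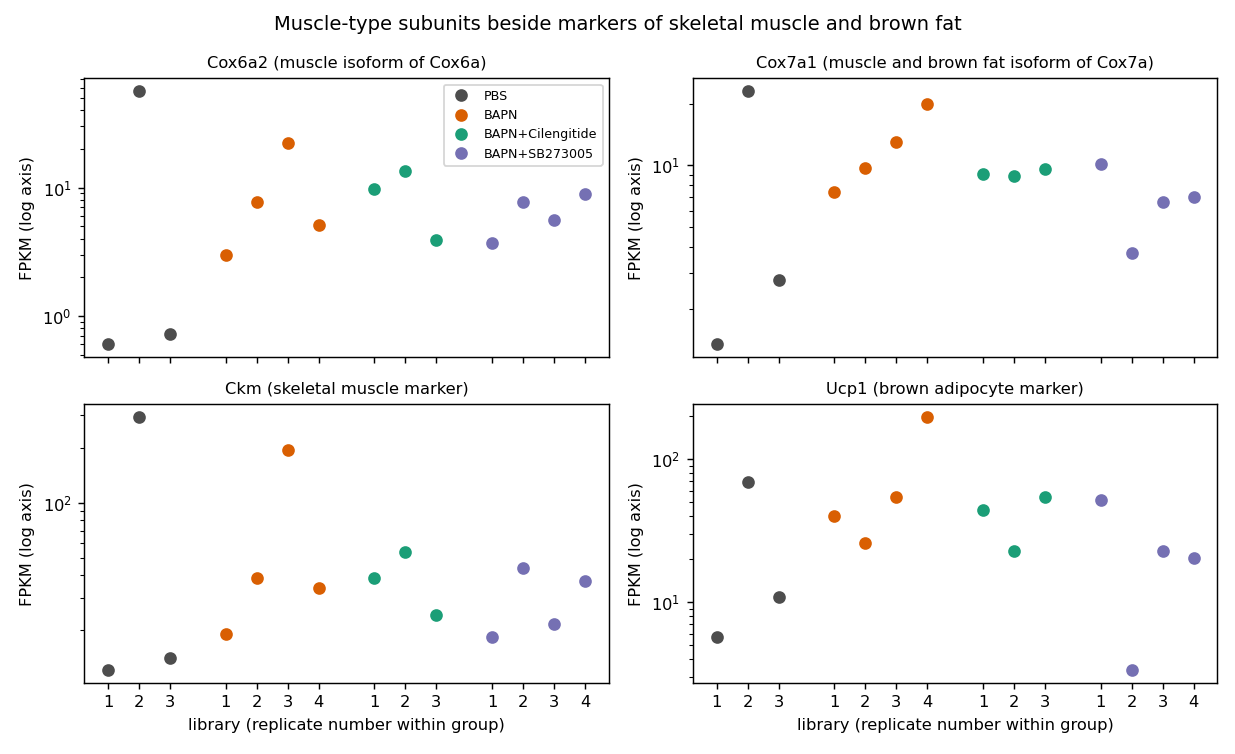
FPKM (log axes) of Cox6a2 and Cox7a1 and of the markers Ckm and Ucp1 in each library. Points are libraries, coloured by group. PBS replicate 2 holds the highest Cox6a2, Cox7a1 and Ckm, and BAPN replicate 4 the highest Ucp1.

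The ubiquitous partners were steadier. Cox6a1 ran from 93.7 FPKM in BAPN+SB273005 replicate 2 to 295 in BAPN replicate 4, and Cox7a2 from 24.3 to 56.0 FPKM. Cox6a2 made up 0.267 to 19.6% of the FPKM of Cox6a1 and Cox6a2 together in PBS, and Cox7a1 made up 2.55 to 29.2% of the FPKM of Cox7a1 and Cox7a2. Cox4i2, the oxygen-sensitive form of subunit IV, stayed at 3.01 to 4.71% of the FPKM of both Cox4 genes in all 14 libraries. It was at 5.89 to 6.73 FPKM in PBS and 3.96 to 5.58 in BAPN+SB273005, a log2 difference of -0.36 ± 0.24 (edgeR adjusted p = 0.352), and differed from PBS by -0.12 ± 0.24 in BAPN and -0.22 ± 0.26 in BAPN+Cilengitide. Cox7a2l departed from the pattern in BAPN+SB273005 replicate 2, where it was highest of all libraries, at 119 FPKM against 70.2 to 97.7 elsewhere. Uqcrh was at 65.6 FPKM in the same library, within the range of the others.

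Genes of linked pathways were counted in BAPN+SB273005 vs PBS, where 5.38% of all tested genes passed as lower and 7.82% as higher. The lists are small, and none was tested as a set. Among 35 of 39 assembly factors that could be tested, Ecsit, which acts in complex I assembly, fell by 0.49 ± 0.12 and Sco2, a copper chaperone of complex IV, rose by 1.09 ± 0.27 (edgeR adjusted p = 0.0199 and 0.0204). Sco2 was at 0.571, 0.658 and 1.27 FPKM in PBS and 1.64 to 1.89 FPKM in BAPN+SB273005. Among 16 of 20 regulators of mitochondrial biogenesis, Pprc1, a coactivator of the PGC-1 family, rose by 0.62 ± 0.16, and Perm1, a muscle regulator, fell by 1.40 ± 0.39 (edgeR adjusted p = 0.0231 and 0.0350). Perm1 was at 2.00, 6.09 and 2.36 FPKM in PBS, highest in replicate 2, and at 0.869 to 1.79 in BAPN+SB273005.

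Of 22 genes of pyruvate and the citric acid cycle, 2 fell, where 5.38% of all tested genes did. Mpc1, part of the pyruvate carrier, fell by 0.64 ± 0.17, and Suclg2, a succinyl-CoA ligase subunit, by 0.47 ± 0.13 (edgeR adjusted p = 0.0314 and 0.0320). Of 7 other respiratory genes, Higd1a, which is induced by hypoxia, fell by 0.74 ± 0.21 (edgeR adjusted p = 0.0349), from 17.0 to 18.9 FPKM in PBS to 5.90 to 13.6. None of 18 genes of fatty acid oxidation passed, and their median was 0.03. No gene of these lists or of the mitochondrially encoded list passed in the other 5 comparisons.

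In the 3 comparisons of BAPN+SB273005, the 13 mitochondrially encoded subunit genes were all above 0, opposite to most nuclear members: their median was 0.43 against PBS, 0.67 against BAPN and 1.14 against BAPN+Cilengitide, and none passed (edgeR). In the other 3 comparisons both sets had medians below 0, those of the mitochondrial genes being -0.22 in BAPN vs PBS, -0.75 in BAPN+Cilengitide vs PBS and -0.48 in BAPN+Cilengitide vs BAPN. Their level was 1.56 and 0.58 in BAPN+SB273005 replicates 2 and 3 and -0.21 and -0.32 in replicates 1 and 4. In replicate 2 these genes took 17.5% of all counts, against 3.99 to 9.89% in the other 13 libraries, and mt-Co1 was at 33168 FPKM against 7408 to 19785 elsewhere. The nuclear members and the mitochondrial genes were therefore at opposite ends in that library. RNA quality was not measured in the files used here, and its part was not tested.

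The members have short transcripts. Their leading transcripts had a median length of 780 bases, against 2670 over all tested genes, and 63.9% were under 1000 bases, against 14.1%. Among genes with leading transcripts under 1000 bases, the median log2 difference in BAPN+SB273005 vs PBS was -0.33 for 53 members and -0.08 for 1821 other genes. For lengths of 1000 to 2000 bases it was -0.23 for 25 members and -0.02 for 2876 other genes. The length classes were set after the data were seen.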

How the data were processed

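Total RNA of mouse ascending aorta was reverse-transcribed with SuperScript II and sequenced in bulk, per the labels' protocols. HISAT2 2.2.1, StringTie 2.1.6 and mm10 are named in the submitters' processing notes; the annotation release, filters and strand setting: not given in the sources used here. Paralogs, pseudogene copies and overlapping genes are therefore uncertain. The authors deposited FPKM and estimated counts for each gene and transcript, with columns for each library.

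Replicate numbers came from the sample labels. Replicates within groups differed by more than sampling noise, so each library counted once. The 13294 genes that reached 1 FPKM in 3 libraries were tested with edgeR 4.0.16 (R 4.3.3; quasi-likelihood, TMM, 1 fit over 14 libraries, group only) on the estimated counts, rounded, with Benjamini-Hochberg adjustment over all of them. An SE is the log2 difference divided by the square root of F, and 95% intervals built on it are approximate. The pipeline was checked on simulated data. Deviations from the group means were correlated between same-numbered libraries. Every pair was above 0.1 in BAPN+Cilengitide vs PBS (0.10 to 0.33) and BAPN+SB273005 vs BAPN+Cilengitide (0.15 to 0.29). In BAPN vs PBS all 3 pairs fell below (-0.16 to 0.09), and in the remaining comparisons some did. This is a hint of pairing from the data and not the labels. The main fit ignores it in all comparisons, and a replicate block was run only as an alternative.

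Members and lists were chosen with earlier results of these data known. Named were the 3 most abundant members of each complex, members that passed (the 8 with the smallest p where over 8 did), the 4 with the smallest p where none did, tissue isoforms, members near the FPKM limit and up to 4 genes of each pathway list. Alternatives were DESeq2 1.42.0 and its size factors, limma 3.58.1 on log2 FPKM (pseudocounts 1 and 0.1), TPM or quantile-normalised values, other filters, other member limits, a replicate block, fits on the groups compared (also without BAPN+SB273005 replicate 4), and leaving out each library. Those chosen after seeing the data were members by summed transcript FPKM, leaving out both libraries numbered 2, overlap on TMM-scaled CPM, length classes, isoform shares and promoter motifs.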

Additional observations from a re-analysis of the deposited data

Results flagged for a closer look

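In BAPN+SB273005 replicate 2, 3 members lay far from the other libraries of their group. Atp5g1 was at 5.55 FPKM there and at 7.15 to 7.35 in the other 3, Atp5j at 22.7 FPKM against 26.1 to 26.8, and Ndufa4l2 at 40.8 FPKM against 19.4 to 22.0. In each, the gap to the nearest library exceeded the 95% critical share of the whole range in Dixon's test for 4 samples, taking 0.888, 0.848 and 0.876 of it. In all, 58 groups of 4 were looked at, and chance flags about 1 in 20.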

How the results depend on the processing

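In BAPN+SB273005 vs PBS, 11 members passed. The count was 17 with the DESeq2 Wald test (all tested genes: 8.44% lower, 11.2% higher), 17 and 18 with limma on log2(FPKM + 1) and log2(FPKM + 0.1) (6.94% and 5.3%, 6.78% and 5.85%), 1 under TPM (2.41% and 3.08%), 2 with no filter on low values (1.4% and 1.72% of more genes tested), 0 in fits on the groups compared and on BAPN+SB273005 replicates 1 to 3, and 1 with both libraries numbered 2 left out. It ran from 0 (without PBS replicate 2) to 13 (without BAPN+SB273005 replicate 4) when 1 library was left out. The shares over all tested genes were 1.35% lower and 2.39% higher in the former, and 6.33% and 8.63% in the latter. With both libraries numbered 2 left out they were 1.62% and 2.44%. In BAPN+Cilengitide vs PBS the count was 1 with members of mean FPKM 1 or more and 1 with both libraries numbered 2 left out. It was 0 to 1 when 1 library was left out (1, Ndufa4l2, without BAPN+SB273005 replicate 2). Over all tested genes, 1.11% passed as lower and 2.49% as higher with both left out, and 3.6% and 5.8% without BAPN+SB273005 replicate 2. In the other 4 comparisons no setting called a member; leaving out 1 library gave 0 throughout. The causes were not tested.

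Median differences over the members ran from -0.39 to -0.11 in BAPN+SB273005 vs PBS when 1 library was left out (-0.042 with both numbered 2 left out), -0.15 to 0.16 in BAPN vs PBS, -0.21 to 0.05 in BAPN+Cilengitide vs PBS, -0.12 to -0.01 in BAPN+Cilengitide vs BAPN, -0.31 to -0.15 in BAPN+SB273005 vs BAPN and -0.23 to -0.09 in BAPN+SB273005 vs BAPN+Cilengitide (-0.44 under TPM). TPM moved the median of all genes by over 0.1 in 4 comparisons: by 0.15 in BAPN+Cilengitide vs PBS, and by -0.10, -0.16 and -0.25 in BAPN+SB273005 vs PBS, BAPN and BAPN+Cilengitide.

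Directions turned for 3 isoforms that did not pass. Cox6a2 was at 0.62, 1.18, 1.04 and 0.59 in BAPN vs PBS under limma on log2(FPKM + 1), log2(FPKM + 0.1), TPM and quantile values, 0.76, 1.35, 1.32 and 0.77 in BAPN+Cilengitide vs PBS, and 0.41, 0.96, 0.72 and 0.42 in BAPN+SB273005 vs PBS. With the replicate block it was 0.24 and 0.27 in the first pair of these. With both libraries numbered 2 left out it was 3.83, 3.79 and 3.20. Leaving out 1 library gave -1.94 to 3.83, -1.67 to 3.79 and -2.15 to 3.32. Cox7a1 in BAPN+SB273005 vs PBS was 0.34, 0.52, 0.43 and 0.35 under the same 4 limma settings and 1.98 with both left out; leaving out 1 library gave -0.92 to 1.79, and -0.10 to 2.60 and -0.51 to 2.19 in BAPN and BAPN+Cilengitide vs PBS. In the last it was -0.0072 with DESeq2 size factors, -0.0066 with the DESeq2 test and -0.0076 with no filter. Cox4i2 in BAPN vs PBS ran from -0.30 to 0.029 when 1 library was left out.

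Of 19 same-number pairs 12 correlated above 0.1 (range -0.16 to 0.33), against 4 of 54 pairs with different numbers. This is a hint of a shared effect that the labels do not state. Deviations from a group mean cancel within the group, so pairs with different numbers are not an independent baseline. Every pair did so in 2 comparisons, BAPN+Cilengitide vs PBS and BAPN+SB273005 vs BAPN+Cilengitide. With a replicate block 9 members passed in BAPN+SB273005 vs PBS (5.63% of all tested genes lower, 8.41% higher). None passed in the other comparisons, so no other count of members changed. What depth limits was not tested.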
